A study of Mus musculus with 12 samples.

Results

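The mitochondrial genome of the mouse is described here through its 37 annotated genes, which are all rows of the deposited expression table placed on the chromosome named MT, of 55806 rows in all. They comprise 13 protein genes, 2 rRNAs and 22 tRNAs, and each class is treated on its own. The genes were measured by RNA-seq in 12 libraries of osteoclasts, the multinucleated cells that resorb bone. Bone marrow monocytes from mice aged 8 to 12 weeks were cultured with the cytokines M-CSF and RANKL for 4 days, and the study asked how loss of the clock gene Per1 changes these cells. The groups were male labelled Per1 knockout, male labelled control, female labelled Per1 knockout and female labelled control, with 3 libraries each, numbered as biological replicates and batches 1 to 3. The library names mark the knockout as cKO, the usual short form of conditional knockout, without spelling it out. The labels give neither the construction of the allele, nor the strain, nor whether the replicates of a group are separate mice. A p-value below therefore speaks only of the scatter among these libraries, part of which may be technical. Values are FPKM, the number of sequenced fragments scaled by gene length and by library depth, and levels of different genes are compared only on this per-length scale.

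The mitochondrial genome is a small circle, present in many copies per cell, that carries core subunits of the respiratory chain together with the rRNAs and tRNAs needed to translate them. Both strands are transcribed into long precursors by the polymerase POLRMT with the factors TFAM and TFB2M, and the precursors are then cut apart, largely at the tRNAs that lie between the other genes. Steady levels of the separate RNAs are set afterwards by processing and decay, with LRPPRC and SLIRP binding most of the mRNAs. Osteoclasts are rich in mitochondria, and in mice their differentiation involves growth of the mitochondrial mass driven by the coactivator PGC-1beta.

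Before the results, the labels and the libraries were checked. Per1 had 2.36, 2.66 and 2.99 FPKM in male libraries labelled knockout, against 3.70, 3.63 and 2.69 FPKM in male libraries labelled control. In females Per1 had 4.04, 3.83 and 2.82 FPKM in libraries labelled knockout, against 2.46, 3.33 and 3.03 FPKM in libraries labelled control, so its level did not follow the female labels, and the male groups overlapped as well. The labels do not say which part of Per1 was deleted, and a gene-level value need not report that part. Knockout and control therefore mean the label of a library throughout, and every direction below rests on those labels. Osteoclast markers were abundant in all libraries, with summed levels of 12622 to 14413 FPKM in male knockout, 12505 to 18271 FPKM in male control, 10283 to 13059 FPKM in female knockout and 12426 to 15144 FPKM in female control libraries. Markers of other cells were present as well. Per library, summed neutrophil markers had 1428 to 2966 FPKM, monocyte and macrophage markers 406 to 943 FPKM and lymphocyte markers 28.1 to 97.9 FPKM. Erythroid and stromal markers summed to at most 8.02 and 5.39 FPKM. Total fragments ranged from 15366600 to 24346288 per library. In 3 libraries, female knockout 1, female knockout 2 and female control 2, the summed level of 15 interferon response genes was 948 to 1234 FPKM, against 109.9 to 334 FPKM in the other 9. In 4 libraries, male knockout 1, male control 3, female control 1 and female control 3, the nuclear 18S rRNA gene Rn18s-rs5 stood at 2258 to 2771 FPKM, against 6014 to 7641 FPKM in the other 8. Both sets are named below beside values in which they stand apart. The part of either set in those values was not tested.

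Mitochondrial transcripts took 3.19, 3.22 and 3.15% of all fragments in male knockout libraries, against 3.30, 3.73 and 3.22% in male control libraries. In females they took 2.80, 2.90 and 3.27% in knockout libraries, against 3.26, 3.09 and 3.16% in control libraries. Male control 2 was the highest of the 12 and female knockout 1 the lowest. The male knockout libraries all lay below the male control libraries, though only just, at 3.216% in male knockout 2 and 3.217% in male control 3, and the female groups overlapped. Protein genes made up nearly all of the mitochondrial share, with 2.66% to 3.62% of all fragments per library. For protein genes alone the male groups overlapped, at 3.119% in male knockout 2 and 3.113% in male control 3. The rRNAs took 0.0807% to 0.131% and the tRNAs 0.0136% to 0.0182%. The rRNA share was highest in the 3 libraries of high interferon response, at 0.127% to 0.131%. The labels name the library kit but not whether RNA was selected by its poly(A) tail or depleted of rRNA, a step that sets how much rRNA and tRNA a library holds. In bulk samples fewer cells of a type and less RNA per cell cannot be told apart.

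**Figure D1:**
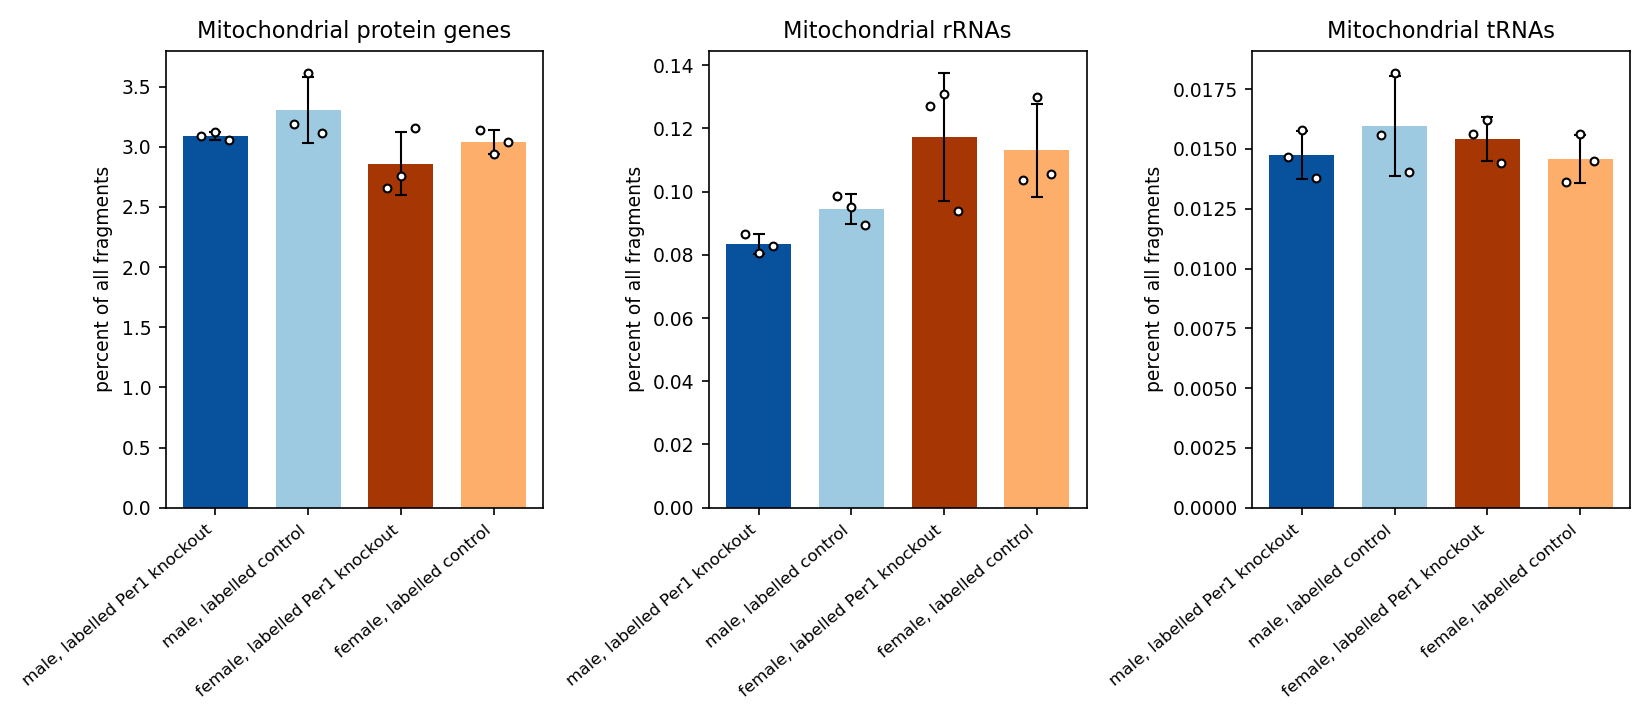
Percent of all fragments on mitochondrial protein genes, rRNAs and tRNAs (y axes, each from 0) in the 4 labelled groups; bars are means, lines the SD and points the 3 libraries of a group. Protein genes took 2.66% to 3.62% per library, and the rRNA share was highest in 3 female libraries at 0.127% to 0.131%.

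The positions of all 37 genes in the table were identical to GENCODE M21 on GRCm38, from which the sequences below were read. Of the 13 protein genes 12 lie on the plus strand and only mt-Nd6 on the minus strand. The reading frames are short of G and C, with a GC content of 31.9% to 41.1%, and 3 of them, mt-Co3, mt-Nd4 and mt-Cytb, have lengths that leave over a single T after the last full codon. Such genes gain their stop codon when the mRNA receives its poly(A) tail. The 9 pairs of overlapping genes include mt-Atp8 with mt-Atp6, which share 43 bases, mt-Nd4l with mt-Nd4, which share 7, and mt-Nd5 with mt-Nd6, which share 14 on opposite strands. The sources used here do not say whether counting used the strand, so fragments of mt-Nd6 and of RNA from the opposite strand cannot be told apart. mt-Atp8 is shown whole (chrM:7766-7969, plus strand), because the stretch in capitals also belongs to mt-Atp6 and fragments there match both genes. The end of mt-Nd4l (chrM:10114-10173, plus strand) is shown with the bases shared with mt-Nd4 in capitals.
mt-Atp8: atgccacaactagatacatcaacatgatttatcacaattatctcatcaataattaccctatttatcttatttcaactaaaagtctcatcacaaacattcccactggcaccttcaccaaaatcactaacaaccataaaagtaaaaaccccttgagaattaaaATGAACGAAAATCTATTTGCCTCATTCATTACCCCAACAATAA
mt-Nd4l: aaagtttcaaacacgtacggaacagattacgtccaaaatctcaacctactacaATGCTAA

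A run of the mitochondrial genome is copied on chromosome 1, and 7 annotated pseudogenes there match mitochondrial genes at more than 99% identity. Gm28661 matched mt-Co2 over 681 of 684 bases, Gm10925 matched mt-Atp6 over 678 of 681, Gm28437 matched mt-Co3 over 783 of 784 and Gm10222 matched mt-Nd4l over 294 of 297, each without a mismatch. Gm28438 matched mt-Nd3 over 345 of 348 bases with 1 mismatch, T3C. Gm29216 matched the last 483 of the 1545 bases of mt-Co1 with 1 mismatch, A1066T, and Gm28439 matched the first 876 of the 1378 bases of mt-Nd4 without one. Positions are counted from 1 at the 5′ end of the mitochondrial gene, whose base is given first. On GRCm38 the 7 copies lie on the minus strand of chromosome 1 in the order of the mitochondrial genes, and their spacing differed from that of the genes by at most 1 base. Together they span the mitochondrial bases 6390 to 11042, and 11 of the 37 genes lie wholly inside that span. These are the 6 protein genes mt-Co2, mt-Atp8, mt-Atp6, mt-Co3, mt-Nd3 and mt-Nd4l and the 5 tRNAs mt-Ts1, mt-Td, mt-Tk, mt-Tg and mt-Tr. The bases between the annotated copies were not compared here.

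The only mismatches in the copied genes are shown in capitals, to make visible how little separates gene from copy: mt-Nd3 (chrM:9459-9491, plus strand) beside Gm28438 (chr1:24613087-24613119, minus strand), and mt-Co1 (chrM:6390-6423, plus strand) beside Gm29216 (chr1:24616155-24616188, minus strand).
mt-Nd3: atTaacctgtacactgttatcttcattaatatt
Gm28438: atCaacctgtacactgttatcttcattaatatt
mt-Co1: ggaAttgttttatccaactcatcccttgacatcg
Gm29216: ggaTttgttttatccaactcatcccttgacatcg

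The sources used here do not say how fragments with more than 1 equally good match were counted, and the table gave both partners a level. mt-Atp6 ranged from 101 to 239 FPKM over the 12 libraries and its copy Gm10925 from 73.5 to 257 FPKM. mt-Co2 ranged from 123 to 291 FPKM and Gm28661 from 61.3 to 159.5 FPKM. mt-Nd4l ranged from 20.1 to 46.5 FPKM and Gm10222 from 10.8 to 40.5 FPKM. For the 5 fully copied genes the median ratio of copy to gene lay between 0.185 for mt-Nd3 and 1.10 for mt-Atp6. The partly copied genes stood far above their copies, with a median ratio of 0.0122 for mt-Co1 and 0.0222 for mt-Nd4. Levels of the 6 protein genes inside the span averaged 2.03 to 201 FPKM, whereas the 5 protein genes wholly outside it averaged 1377 to 3983 FPKM. The coefficient of variation over the 12 libraries was 18.7% to 57.4% for the 6 genes inside and 10.1% to 17.5% for the 5 outside. The part of the copies in these lower and more variable levels was not tested, and values of the 6 genes are uncertain. Of the 7 copies, 5 were lower in each of the 4 libraries of low 18S rRNA than in any of the other 8. Gm10925, for example, had 73.5 to 105 FPKM in those 4 and 136 to 257 FPKM in the other 8. Of the 13 mitochondrial protein genes only mt-Nd4l separated in this way, with 20.1 to 25.6 FPKM in the 4 libraries and 28.9 to 46.5 FPKM in the other 8. The share of all genes that separated in this way was not counted, and these counts are descriptions.

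**Figure D2:**
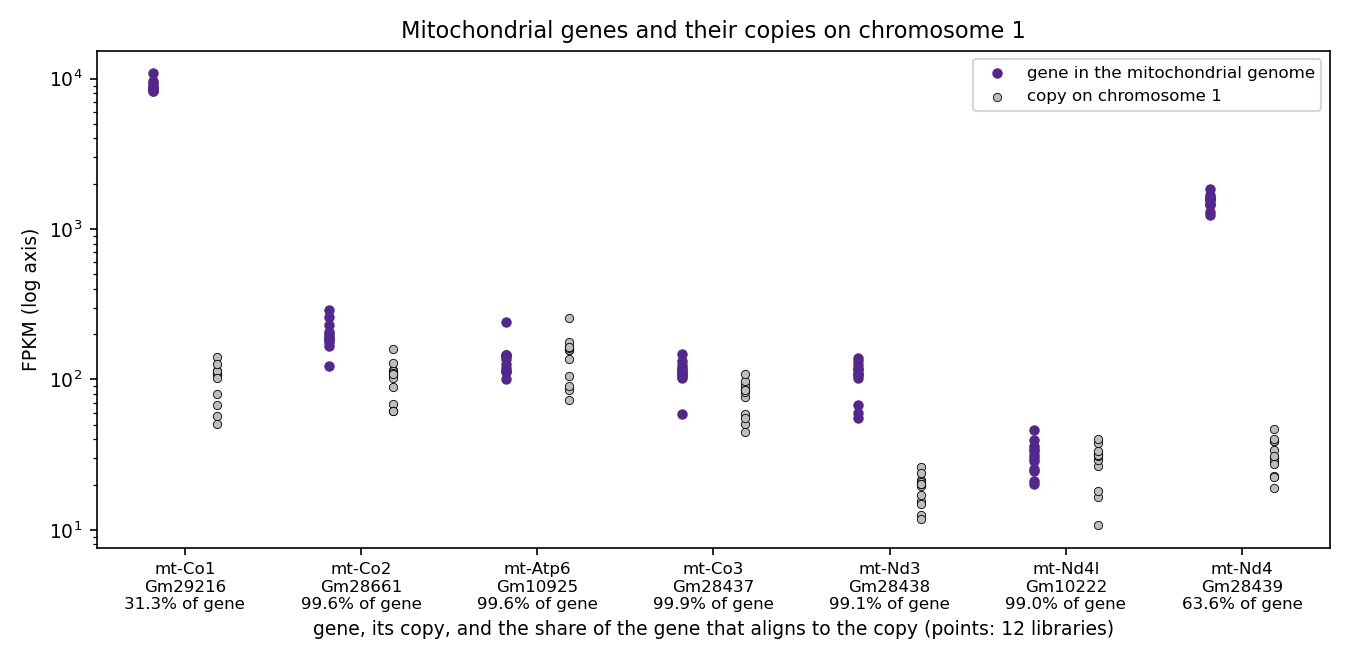
FPKM (y axis, log scale) of 7 mitochondrial protein genes and of their copies on chromosome 1 in the 12 libraries (points), with the share of the gene that aligns to its copy. mt-Co1 and mt-Nd4, copied in part, lie far above their copies, while for the fully copied genes the median ratio of copy to gene is 0.185 to 1.10.

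Among protein genes the order of levels was steep. mt-Co1, the catalytic subunit of complex IV, averaged 8890.1 FPKM and had the highest mean of all genes in the table. mt-Nd1, a membrane subunit of complex I, averaged 3983 FPKM, and mt-Cytb, the only mitochondrially encoded subunit of complex III, averaged 3897 FPKM. mt-Co1 exceeded mt-Nd1 in 12 of 12 libraries, but mt-Nd1 exceeded mt-Cytb in only 8 of 12, so the order of these neighbours was not stable between libraries. The complex I subunits mt-Nd2, mt-Nd5, mt-Nd4 and mt-Nd6 followed with means of 1720.0, 1589, 1535 and 1377 FPKM. mt-Nd5 exceeded mt-Nd4 in 8 of 12 libraries and mt-Nd4 exceeded mt-Nd6 in 10 of 12. These 7 genes were all among the 20 genes of highest mean FPKM in the table. Below them came the complex IV subunit mt-Co2 at 201, the ATP synthase subunit mt-Atp6 at 137, the complex IV subunit mt-Co3 at 112 and the complex I subunit mt-Nd3 at 104 FPKM. mt-Nd4l, another complex I subunit, averaged 30.9 FPKM. mt-Atp8, the short partner of mt-Atp6 in ATP synthase, averaged 2.03 FPKM from only 3 to 20 fragments per library. Within complex IV, the measured level of mt-Co1 stood 28.5 to 69.7 times above that of mt-Co2 across the libraries. All protein genes with means below that of mt-Nd6, mt-Co2 among them, lie inside the copied run, and their values are uncertain. The part of the copies in this ratio and in the steep order was not tested.

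**Figure D3:**
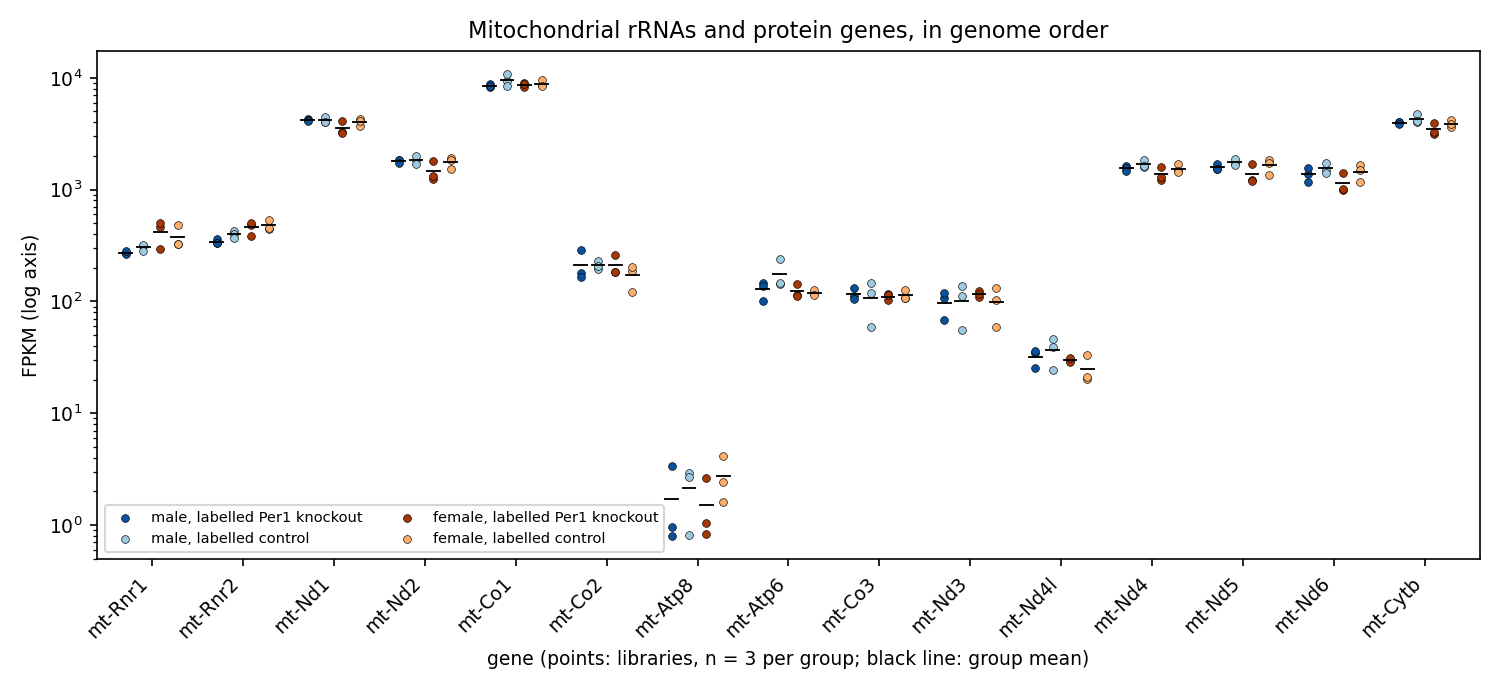
FPKM (y axis, log scale) of the 2 mitochondrial rRNAs and 13 protein genes in genome order; points are libraries in the 4 labelled groups and black lines group means. The genes from mt-Co2 to mt-Nd4l, which lie inside the run copied on chromosome 1, average 2.03 to 201 FPKM, and all other protein genes average 1377 FPKM or more.

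Between knockout and control no mitochondrial gene passed the test in either sex. Of 37 genes 34 reached 1 FPKM in at least 3 libraries and were tested with limma on log2(FPKM + 1), with Benjamini-Hochberg adjustment over all 12237 genes tested. The test called 0 of 34 higher and 0 of 34 lower in males, where it called 0% of all genes higher and 0.00817% lower. In females it called 0 of 34 in each direction, with a background of 0% higher and 0% lower. The average over both sexes also gave 0 of 34 in each direction, with 0% of all genes called higher and 0.00817% lower. limma's voom on fragments rebuilt from the FPKM likewise called 0 members in these comparisons. At an unadjusted p under 0.05 in males, 0 of 34 members were higher and 1 was lower, against 8.09% and 6.54% of all genes. In females 1 was higher and 0 lower at that level, against 5.27% and 6.09% of all genes. Averaged over the sexes 0 were higher and 2 lower, against 4.98% and 5.43%. The 3 members behind these counts are mt-Tn, mt-Ta and mt-Nd6, described with their classes. A list of 10 monocyte and macrophage markers moved with the male labels, at 406 to 490.2 FPKM in male knockout and 555 to 651 FPKM in male control libraries, with all 10 negative and 1 called lower by limma. In females its summed level was 574 to 943 FPKM in knockout and 595 to 873 FPKM in control libraries. The part of these cells in the values was not tested.

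The complex IV gene mt-Co1 had 8300.3, 8764 and 8498 FPKM in male knockout libraries, against 9316, 10844 and 8514 FPKM in male control libraries. In females it had 8218, 8958 and 8717 FPKM in knockout libraries, against 8543, 9592 and 8417 FPKM in control libraries. Male control 1 and 2 lay above all 3 male knockout libraries, male control 3 lay among them, and the female groups overlapped throughout. The log2 change was -0.16 ± 0.10 (SE) in males and -0.03 ± 0.10 in females, with 95% intervals of -0.38 to 0.06 and -0.25 to 0.18. Adjusted p by limma was 0.491 in males and 0.891 in females.

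Complex III is represented by mt-Cytb, the cytochrome that carries electrons within the complex. Male knockout libraries had 4029, 3991 and 3894 FPKM, against 4056, 4701 and 4086 FPKM in male control libraries. Female knockout libraries had 3155, 3259 and 3942 FPKM, against 4160.1, 3639 and 3847 FPKM in female control libraries. All male knockout values were below all male control values, by a narrow margin, whereas female knockout 3 lay within the female control range. The log2 change was -0.11 ± 0.10 in males and -0.17 ± 0.10 in females, and the adjusted p by limma was 0.675 and 0.499. Female knockout 1, female knockout 2 and female control 2, the libraries of high interferon response, were the lowest of all 12 for this gene.

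Of the complex I genes outside the copied run, mt-Nd1 had 4316, 4223 and 4080.3 FPKM in male knockout libraries, against 3998, 4470.1 and 4026 FPKM in male control libraries. Its female values were 3244, 3207 and 4149 FPKM in knockout libraries, against 4295, 3692 and 4094 FPKM in control libraries. The male groups overlapped fully, and in females only knockout 1 and 2 fell below the control libraries. mt-Nd2 had 1854, 1835 and 1737 FPKM in male knockout libraries, against 1852, 1982 and 1704 FPKM in male control libraries. In females mt-Nd2 had 1245, 1316 and 1813 FPKM in knockout libraries, against 1931, 1544 and 1826 FPKM in control libraries. The same female libraries were low, and knockout 3 lay between control 2 and the other two control libraries. mt-Nd5, the largest protein gene of the genome, had 1694, 1518 and 1544 FPKM in male knockout libraries, against 1737, 1866 and 1673 FPKM in male control libraries. In females mt-Nd5 had 1213, 1196 and 1688 FPKM in knockout libraries, against 1839.5, 1349 and 1745 FPKM in control libraries. Again female knockout 1 and 2 and female control 2 were the lowest of the 12. Log2 changes in females were -0.20 ± 0.11 for mt-Nd1, -0.29 ± 0.14 for mt-Nd2 and -0.27 ± 0.15 for mt-Nd5, with limma adjusted p of 0.486, 0.447 and 0.481. In males they were 0.02 ± 0.11, -0.03 ± 0.14 and -0.15 ± 0.15, with limma adjusted p of 0.966, 0.953 and 0.682.

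mt-Nd4, copied in part, had 1616, 1559.7 and 1472 FPKM in male knockout libraries, against 1593, 1848 and 1629 FPKM in male control libraries. In females mt-Nd4 had 1231, 1296 and 1581 FPKM in knockout libraries, against 1681, 1470.1 and 1444 FPKM in control libraries. Its groups overlapped in both sexes, with log2 changes of -0.12 ± 0.11 in males and -0.17 ± 0.11 in females (limma adjusted p = 0.641 and 0.539). mt-Nd6, the minus-strand subunit of complex I, had 1159, 1375 and 1565 FPKM in male knockout libraries, against 1497, 1736 and 1421 FPKM in male control libraries. In females mt-Nd6 had 1001, 1012 and 1407 FPKM in knockout libraries, against 1665, 1181 and 1500.2 FPKM in control libraries. The groups overlapped in both sexes, and male knockout 1 was lower than the other 8 libraries without high interferon response. The log2 change of mt-Nd6 averaged over the sexes was -0.27 ± 0.12, with an unadjusted p of 0.0493 and an adjusted p of 0.479 by limma. An exact permutation test within sex gave p = 0.0700 over 400 arrangements.

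Set side by side, the 7 protein genes not inside the copied run had negative log2 changes in 6 of 7 cases in males, with a median of -0.12, and in 7 of 7 in females, with a median of -0.20. The median of all genes tested was -0.00487 in males and -0.00827 in females. Male control 2 was the highest of the 12 libraries for 7 of these 7 genes. Without it the male median over all 13 protein genes was -0.04, and without male control 3 it was -0.19, against -0.12 with all libraries. In females the lowest library was knockout 1 for 5 of the 7 genes and knockout 2 for the other two. The female median over all 13 protein genes was -0.09 without knockout 1, -0.27 without knockout 3 and -0.10 without control 1, against -0.17 with all libraries. Without the 3 libraries of high interferon response, 1 female knockout and 2 female control libraries remain, and there is no spread within the female knockout group. The lone library is assumed to vary like the other groups, whose spread gives the errors, and the values are descriptions. The female change was then -0.02 ± 0.12 for mt-Nd1, -0.05 ± 0.12 for mt-Nd2, -0.02 ± 0.13 for mt-Cytb and -0.17 ± 0.19 for mt-Nd6. Without these 3 libraries the female median over all 13 protein genes was -0.02. mt-Nd1, mt-Cytb, mt-Nd2 and mt-Nd5 were lower in each of these 3 libraries than in any of the other 9, with mt-Nd2, for example, at 1245 to 1544 FPKM in the 3 and 1704 to 1982 FPKM in the 9. Summed osteoclast markers were lowest in the same libraries, at 10441 FPKM in female knockout 1, 10283 in female knockout 2 and 12426 in female control 2. The other 9 had 12505 FPKM or more, a narrow margin to female control 2. On the mean of log2(FPKM + 1) over these markers, male control 3 at 7.53 lay below female control 2 at 7.62. Summed monocyte and macrophage markers had 769, 943 and 873 FPKM in female knockout 1, female knockout 2 and female control 2. Each of the other 9 had 651 FPKM or less. How many of all genes set these 3 libraries apart from the other 9 was not counted. The parts of the interferon response and of cell composition in the female values were not tested.

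The 6 protein genes inside the copied run showed larger spreads within groups and no call. mt-Co2 had 291, 179 and 166 FPKM in male knockout libraries, against 196, 231 and 208 FPKM in male control libraries. In females mt-Co2 had 262, 184 and 185 FPKM in knockout libraries, against 123, 189 and 205 FPKM in control libraries. In each knockout group replicate 1 stood apart above the other two. mt-Atp6 had 101, 146 and 137 FPKM in male knockout libraries, against 144, 239 and 146 FPKM in male control libraries. In females mt-Atp6 had 114, 111 and 144 FPKM in knockout libraries, against 119, 127 and 114 FPKM in control libraries. Male control 2 and male knockout 1 formed the ends of the range for this gene. Its male log2 change of -0.43 ± 0.20 had the lowest adjusted p of the 13 protein genes in males, 0.348 by limma. mt-Nd3 was low in 3 libraries of 3 different groups, at 67.7 FPKM in male knockout 3, 55.8 FPKM in male control 3 and 59.4 FPKM in female control 1, against 102 FPKM or more in the other 9. mt-Co3 was lowest in male control 3, at 59.3 FPKM, against 103 FPKM or more in the other 11 libraries. mt-Nd4l had 25.6, 34.5 and 36.0 FPKM in male knockout libraries, against 39.4, 46.5 and 24.5 FPKM in male control libraries. In females mt-Nd4l had 29.9, 28.9 and 31.4 FPKM in knockout libraries, against 20.1, 33.2 and 21.2 FPKM in control libraries, and its lowest values in 3 of the 4 groups came from libraries of low 18S rRNA. mt-Atp8 lay between 0.799 and 4.17 FPKM over the 12 libraries, with all 4 groups overlapping. Over the 6 genes the median log2 change was -0.10 in males and 0.16 in females, with 4 of 6 negative in males and 2 of 6 in females. The 7 copies themselves had medians of 0.02 and 0.44, also with 0 called in either sex. Of these copies, 5 were lower in each library of low 18S rRNA than in any other. That set holds female control 1 and 3 but no female knockout library, and its part in the female median was not tested.

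**Figure D4:**
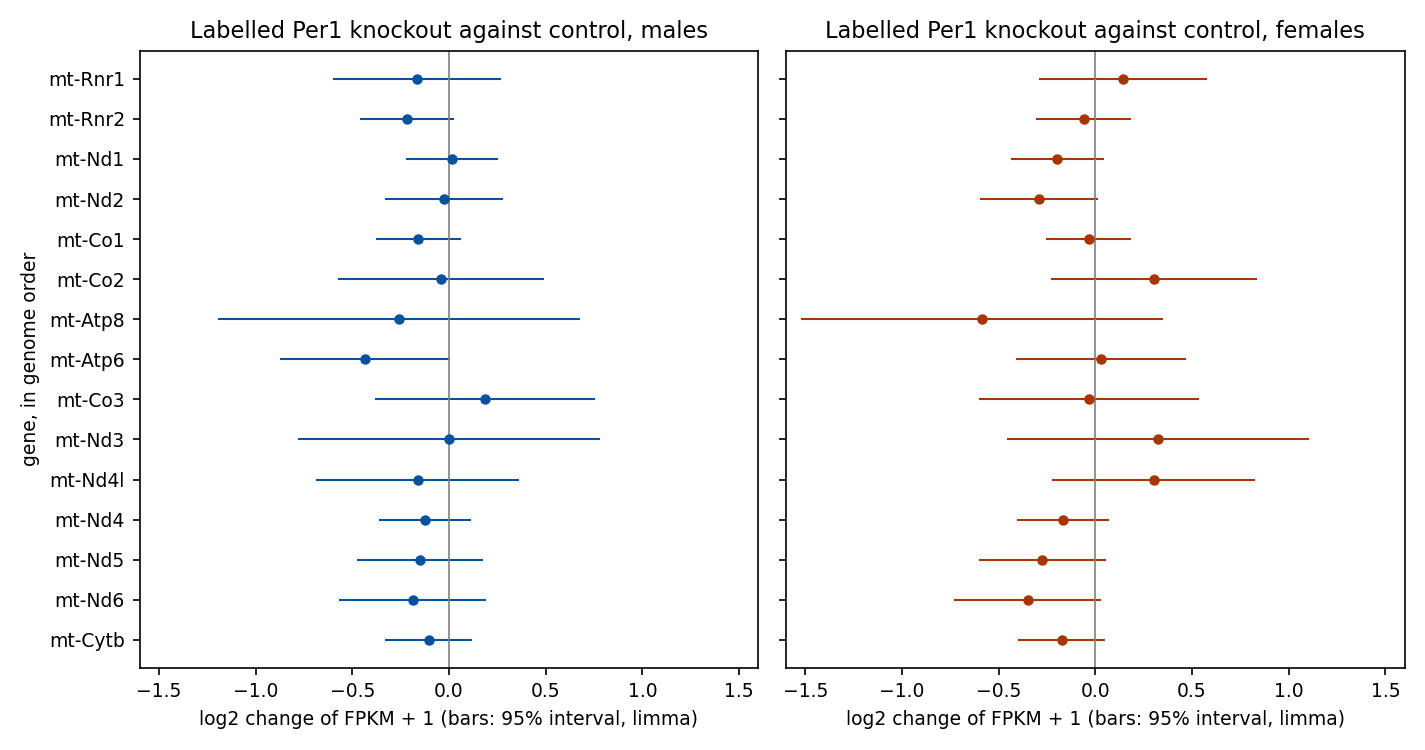
Log2 change of FPKM + 1 (x axes) of the 2 rRNAs and 13 protein genes, libraries labelled knockout against control, in males (left) and females (right), with 95% intervals from limma. All 15 intervals cross 0 in both sexes, and those of the 6 genes inside the copied run are the widest of the protein genes.

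The rRNAs of the mitochondrial ribosome differed from the protein genes in which libraries were high. mt-Rnr1, the rRNA of the small subunit, had 273, 263 and 280.4 FPKM in male knockout libraries, against 311, 322 and 285 FPKM in male control libraries. In females it had 468, 501 and 295 FPKM in knockout libraries, against 324, 483 and 328 FPKM in control libraries. In males all knockout values lay below all control values, and in females the groups overlapped since control 2 lay between knockout 1 and 2 and knockout 3 lay below all controls. mt-Rnr2, the rRNA of the large subunit, had 364, 332 and 332 FPKM in male knockout libraries, against 425, 402 and 370.1 FPKM in male control libraries. In females mt-Rnr2 had 487, 504 and 389 FPKM in knockout libraries, against 449, 534 and 451 FPKM in control libraries. The male groups did not overlap here either, while the female groups did. Log2 changes in males were -0.17 ± 0.20 for mt-Rnr1 and -0.22 ± 0.11 for mt-Rnr2, with limma adjusted p of 0.749 and 0.393. In females they were 0.14 ± 0.20 and -0.06 ± 0.11, with limma adjusted p of 0.763 and 0.826. An exact permutation test of the male values gave p = 0.1 for each, the smallest that 3 against 3 libraries allow without pairing by batch. Both rRNAs were higher in each of the 3 libraries of high interferon response than in any of the other 9, with mt-Rnr1 at 468 to 501 FPKM in the 3 and 263 to 328 FPKM in the 9. The share of all genes that separate these libraries in the same way was not counted, and the pattern is a description. Without these libraries the female value was -0.14 ± 0.10 for mt-Rnr1 and -0.21 ± 0.11 for mt-Rnr2, again from 1 female knockout library with an error taken from the spread of the other groups.

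Counted over all classes, 5 of 34 members had male knockout libraries all below male control libraries, namely mt-Cytb, mt-Rnr1, mt-Rnr2, mt-Tn and mt-Tt, and 0 had them all above. Among all genes tested 10.9% lay below without overlap and 12.5% above. In females 1 of 34, mt-Ta, had knockout libraries all above control libraries and 0 all below, with 6.38% and 6.85% of all genes. The male share below lay near its background, while the male share above and the female shares lay under theirs. These counts were not tested against the background and are no result about the mitochondrial genes.

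The 22 tRNAs, each 59 to 75 bases long, were measured with few fragments. mt-Tp, the tRNA for proline, took 44.1% to 64.5% of all tRNA fragments of a library. It is shown with mt-Tc, the tRNA for cysteine and second in level, and with mt-Tf and mt-Td, for phenylalanine and aspartate, which had almost no fragments. Capitals mark the anticodon, the triplet that reads the codon of the mRNA.
mt-Tp: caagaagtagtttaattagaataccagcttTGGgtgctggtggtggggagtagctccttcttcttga
mt-Tc: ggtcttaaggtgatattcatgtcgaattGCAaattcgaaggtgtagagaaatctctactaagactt
mt-Tf: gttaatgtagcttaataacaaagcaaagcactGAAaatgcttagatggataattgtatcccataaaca
mt-Td: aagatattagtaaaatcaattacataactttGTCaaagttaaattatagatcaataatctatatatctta

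On the mitochondrial genome mt-Tp lies at chrM:15356-15422 and mt-Tc at chrM:5192-5257, both on the minus strand, while mt-Tf at chrM:1-68 and mt-Td at chrM:6942-7011 are on the plus strand. mt-Tp averaged 1179.7 FPKM and mt-Tc 269 FPKM, followed by the tRNA for asparagine, mt-Tn, at 136 FPKM and the leucine tRNAs mt-Tl1 at 132 and mt-Tl2 at 124 FPKM. mt-Tf was at 0 in 12 of 12 libraries, where 3 fragments, the limit that a count of 0 allows, correspond to 1.75 to 2.77 FPKM. mt-Td had 1 fragment in 1 library, and mt-Tk, for lysine, had 1 fragment in each of 3 libraries. These 3 tRNAs did not reach the level needed for testing, and the other 19 were tested. The median of the mean levels was 44.5 FPKM for the 8 tRNAs on the minus strand and 12.0 FPKM for the 14 on the plus strand. The 5 tRNAs inside the copied run averaged 0.0646 to 35.4 FPKM, with a median of 1.83 FPKM, against 46.4 FPKM for the 17 outside it. The part of the copied run in the medians by strand was not tested. Whether counting used the strand is not known either. Neighbours in the genome could differ widely, as mt-Tp stood 46.2 to 184 times above mt-Tt, the adjacent threonine tRNA on the opposite strand. Whether the fragments came from mature tRNAs or from precursors was not tested.

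**Figure D5:**
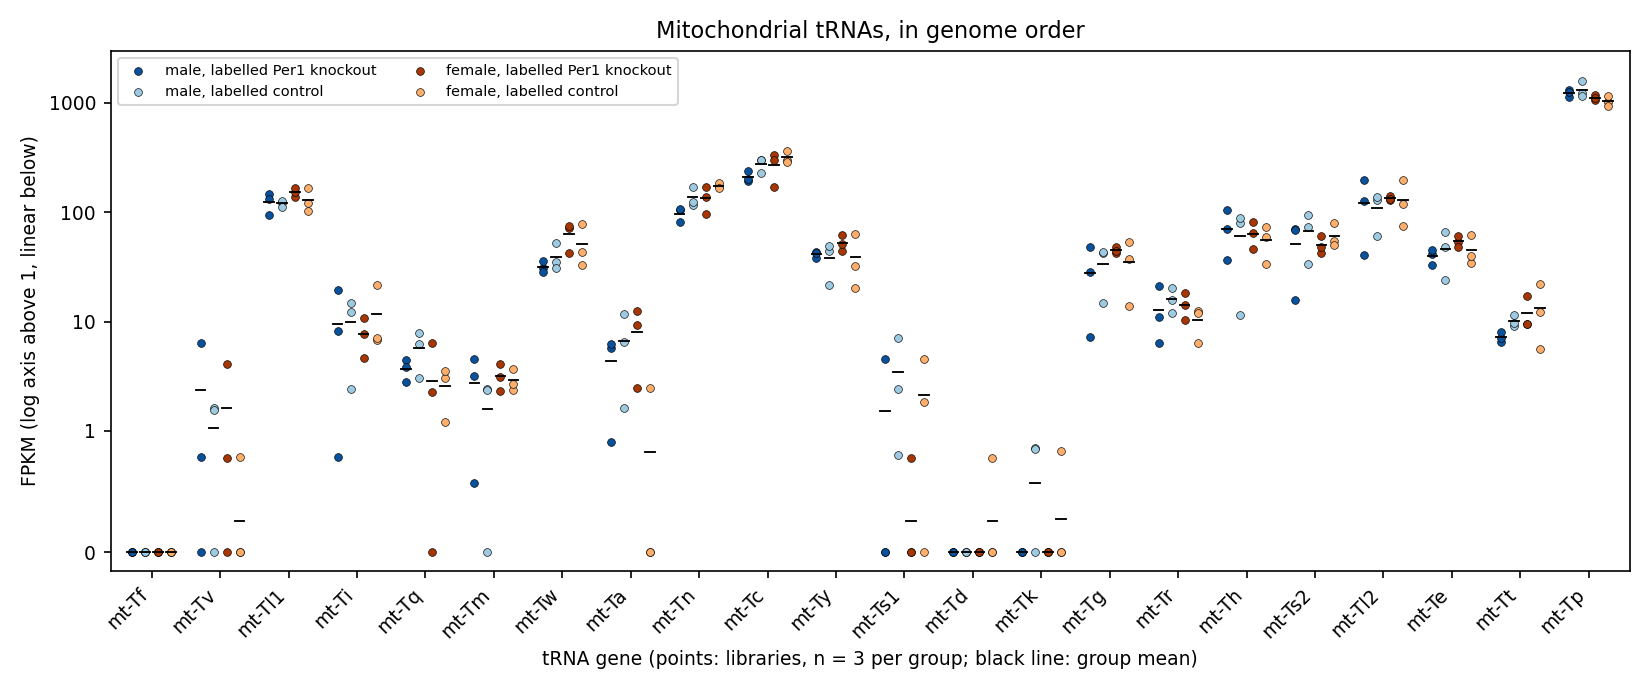
FPKM of the 22 mitochondrial tRNAs in genome order (y axis, log above 1 and linear below); points are libraries in the 4 labelled groups and black lines group means. mt-Tp averages 1179.7 FPKM, and mt-Tf, mt-Td and mt-Tk lie at or near 0.

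mt-Tp had 1134, 1302 and 1269 FPKM in male knockout libraries, against 1234, 1576 and 1163 FPKM in male control libraries. In females mt-Tp had 1067, 1190.4 and 1099 FPKM in knockout libraries, against 1028, 1166 and 927 FPKM in control libraries. The groups overlapped in both sexes, and the log2 change was -0.09 ± 0.12 in males and 0.11 ± 0.12 in females (limma adjusted p = 0.789 and 0.711). mt-Tn had 104, 80.8 and 106 FPKM in male knockout libraries, against 118, 123 and 170.4 FPKM in male control libraries. In females mt-Tn had 170.3, 137 and 97.3 FPKM in knockout libraries, against 173, 184 and 166 FPKM in control libraries. All male knockout values were below the male control values, and in females knockout 1 lay within the control range while knockout 2 and 3 lay below it. The log2 change of mt-Tn was -0.48 ± 0.20 in males, -0.40 ± 0.20 in females and -0.44 ± 0.14 on average, with limma adjusted p of 0.301, 0.459 and 0.340. The exact permutation test within sex gave p = 0.01 over 400 arrangements, the lowest of the 34 tested members and not adjusted for them. mt-Tc, whose gene lies next to mt-Tn on the same strand, had 239, 194 and 199.9 FPKM in male knockout libraries, against 229, 302 and 301 FPKM in male control libraries. In females mt-Tc had 336, 302 and 170.3 FPKM in knockout libraries, against 366, 300.0 and 286 FPKM in control libraries. Both of its comparisons overlapped.

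mt-Ta, the tRNA for alanine, is the member whose female groups did not overlap, but it rests on very few fragments. Female knockout libraries had 9.31, 2.47 and 12.4 FPKM from 12, 3 and 16 fragments, against 2.47, 0 and 0 FPKM from 4, 0 and 0 fragments in female control libraries. Male knockout libraries had 0.909, 5.73 and 6.30 FPKM, against 6.49, 11.7 and 1.61 FPKM in male control libraries. The female log2 change was 2.37 ± 0.76, with an unadjusted p of 0.0104 and an adjusted p of 0.379 by limma. Its difference from the male change, 2.84 ± 1.08, had an adjusted p of 0.243 by limma. Female knockout 2 and female control 1 had the same value to 3 digits, and the separation of the female groups is that narrow.

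Among the remaining tRNAs, mt-Th, mt-Tl2 and mt-Tg shared a set of low libraries, a pattern picked out after the values were seen. These are the tRNAs for histidine, leucine and glycine. mt-Tl2 stood at 40.5 FPKM in male knockout 3, 60.2 FPKM in male control 3 and 74.3 FPKM in female control 1, against 119 FPKM or more in the other 9 libraries. mt-Tg stood at 7.19, 14.7 and 13.8 FPKM in the same 3 libraries, against 28.6 FPKM or more in the other 9. mt-Th stood at 36.5, 11.6 and 33.7 FPKM there, against 45.8 FPKM or more in the other 9. These are the libraries in which mt-Nd3 was low as well, and they come from 3 groups and from batches 1 and 3. mt-Tw, the tRNA for tryptophan, was highest in the 3 libraries of high interferon response, at 71.1 FPKM in female knockout 1, 75.5 FPKM in female knockout 2 and 78.5 FPKM in female control 2, against 51.8 FPKM or less in the other 9. The same 3 libraries were the highest for both rRNAs, and mt-Tw was likewise picked out after its values were seen. mt-Te and mt-Ty, for glutamate and tyrosine, ranged from 24.1 to 65.7 FPKM and from 20.3 to 63.2 FPKM, and mt-Ts2, for serine, from 15.6 to 94.0 FPKM, with groups that overlapped in both sexes. Log2 changes of the 19 tested tRNAs had a median of -0.36 in males, with 14 of 19 negative, and of 0.15 in females, with 6 of 19 negative. They ranged from -1.06 to 0.55 in males and from -1.05 to 2.37 in females.

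Whether the knockout effect differed between the sexes was tested directly. limma called 0 of 34 members in either direction, and voom 0 as well, where limma called 0% of all genes higher and 0% lower. At an unadjusted p under 0.05, 1 member, mt-Ta, was higher and 0 were lower, against 7.49% and 9.47% of all genes. The 13 protein genes had a median difference of -0.07, female minus male.

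Female and male control libraries were compared as well. limma called 0 of 34 members and voom 0 as well, with 0.0163% of all genes called higher in females and 0.0409% lower. At an unadjusted p under 0.05, 1 member was higher in females and 4 were lower, against 3.05% and 2.53% of all genes. The higher one was mt-Rnr2, with a log2 difference of 0.26 ± 0.11. The lower ones were mt-Tp with -0.34 ± 0.12, mt-Atp6 with -0.51 ± 0.20, mt-Nd4l with -0.54 ± 0.24 and mt-Ta with -2.05 ± 0.76. Their adjusted p by limma lay between 0.839 and 0.865. Female and male control libraries overlapped for mt-Tp, mt-Nd4l and mt-Ta and did not for mt-Rnr2 and mt-Atp6. These members had been picked by their unadjusted p, and the share of all genes without such overlap was not counted. Male control 2 was the highest of the 6 for mt-Tp, mt-Atp6, mt-Nd4l and mt-Ta, and female control 2, of high interferon response, for mt-Rnr2.

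The nuclear genes that make, cut and degrade mitochondrial RNA were described by lists chosen with earlier results of these data known. Of 40 such genes, 34 had positive log2 changes in males, with a median of 0.15, and 0 were called in either direction. In males 15 of the 40 had knockout libraries all above control libraries, against 12.5% of all genes, and 1 all below, against 10.9% of all genes. At an unadjusted p under 0.05, 7 of the 40 were higher in male knockout libraries, against 8.09% of all genes, and 0 were lower, against 6.54%. In females 16 of the 40 were positive, with a median of -0.07, and 0 were called. Tbrg4, which stabilises a subset of mitochondrial mRNAs, had 23.7, 23.0 and 22.1 FPKM in male knockout libraries, against 17.9, 18.2 and 18.3 FPKM in male control libraries, a log2 change of 0.32 ± 0.07 with a limma adjusted p of 0.116. Polrmt, the mitochondrial RNA polymerase, had 6.67, 7.04 and 6.86 FPKM in male knockout libraries, against 6.31, 5.98 and 5.65 FPKM in male control libraries, with an adjusted p of 0.280 by limma. Male knockout values of both genes lay above all male control values. Of 11 tested regulators of mitochondrial biogenesis 8 were positive in males and 5 in females, and of 16 genes of mitochondrial DNA maintenance 10 and 8, with 0 called in either list and sex.

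The nuclear subunits of the same respiratory complexes had no called member in any comparison of knockout with control. In females the log2 changes were negative for 26 of 36 complex I subunits with a median of -0.09, for 14 of 18 ATP synthase subunits with a median of -0.13, and for 4 of 4 subunits of complex II, which has no mitochondrially encoded member, with a median of -0.21. In males 17 of 36 complex I subunits and 8 of 18 ATP synthase subunits were negative, with medians of 0.01 and 0.01. For complex IV, 10 of 11 nuclear subunits were negative in males and 7 in females, and for complex III 7 and 5 of 9. The lowest adjusted p in females was that of Ndufa10, a complex I subunit, with 27.2, 26.9 and 32.1 FPKM in female knockout libraries, against 35.6, 33.7 and 35.6 FPKM in female control libraries, and 0.358 by limma. The 13 osteoclast markers were negative in 13 of 13 cases in females, with a median of -0.21, and the 15 interferon response genes positive in 15 of 15, with a median of 0.52. Their part in the female values of mitochondrial and nuclear subunits was not tested.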

How the data were processed

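Per the submitters' processing notes, the tools were HISAT2 2.0.5 and featureCounts 1.5.0-p3 and the build was mm10; the sources used here give neither their roles nor parameters. The authors deposited FPKM per gene. FPKM times gene length fell on whole multiples of 1 step in 100% of values of every library, within a tolerance of 0.01, and fragments were rebuilt from these steps. The 12237 genes that reached 1 FPKM in 3 libraries entered the test with limma 3.58.1 in R 4.3.3 on log2(FPKM + 1), with 4 group means, a variance trend, two-sided p-values and a Benjamini-Hochberg threshold of 0.05. The pseudocount shrinks the fold changes of low genes. Exact permutation tests were two-sided. Copies were found with blastn 2.17.0 against GENCODE M21 transcripts (GRCm38), at 90% identity or more over at least 30 bases. Of 52080 shared genes 2.87% had identical coordinates in both, so the build of the table's nuclear coordinates is uncertain and none is printed. A limit of 3 fragments covers counting error only. Members and lists were chosen with earlier results of these data known; named were all protein genes and rRNAs, tested tRNAs by level or p, and up to 4 genes of lowest p per nuclear list. Atp5o was listed at 0 in all libraries. Libraries of the same number share a batch per the labels, and the numbers therefore pair them. Deviations of 6 same-numbered pairs correlated at -0.19 to 0.44, with a mean of 0.0742. Those of 12 pairs of other numbers correlated at -0.52 to 0.33, with a mean of -0.0404. The main fit and the permutation tests did not use this pairing, and a replicate block was fitted only as an alternative. Alternatives covered the pseudocount, filter, scaling, variance model, voom, threshold, libraries, replicate block and share denominators. No genome or protein sequence was used here.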

Additional observations from a re-analysis of the deposited data

How the results depend on the processing

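Over 15 alternatives and with each of the 12 libraries left out, 0 members were called in any of the 5 comparisons. Without the 3 libraries of high interferon response, which leaves 1 female knockout library, assumed to vary like the other groups, the median of the 13 protein genes was -0.0154 in females, against -0.17 with them, and that of the female minus male difference 0.0840, against -0.07; mt-Co1, mt-Nd4 and mt-Rnr1 then had female changes of 0.0398, 0.0208 and -0.144, each with the other sign. Quantile normalization gave male changes of 3.55e-15 for mt-Co1, which is 0 within rounding, 0.0633 for mt-Nd2, 0.0640 for mt-Nd4 and 0.0442 for mt-Tp, voom a female change of 0.00193 for mt-Co1, and a term for the share of nuclear rRNA a female change of -0.0572 for mt-Tp, all of the other sign than reported. Leaving out single libraries gave male ranges of -0.0126 to 0.0679 for mt-Nd1, -0.0834 to 0.0255 for mt-Nd2 and -0.178 to 0.0414 for mt-Tp, and female ranges of -0.0697 to 0.0246 for mt-Co1, -0.000802 to 0.380 for mt-Rnr1 and -0.130 to 0.0571 for mt-Rnr2. The mitochondrial share over fragments outside mitochondrial rRNA genes was 3.11% in male knockout and 3.06% in female control libraries, against 3.19% and 3.17% over all fragments. With this denominator the male groups overlapped, at 3.138% in male knockout 2 and 3.130% in male control 3. The replicate block changed no call of a member, with an adjusted p by limma of 0.351 for mt-Tn in males and 0.398 for mt-Ta in females under the batch of the label. Of 2448 member values under the 15 alternatives, 98 had the other sign. Over all genes, calls changed by more than 1.5 times under some settings, for example 72 higher in females without a filter, against 0, and 40 higher in males with the nuclear rRNA term or 45 without male control 3, against 0. mt-Atp8 and 11 tRNAs under 20 FPKM are limited by depth; the cause of the other changes was not tested.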

Other observations

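Ratios between mitochondrial genes within a library do not depend on its depth. mt-Rnr2 over mt-Rnr1 was 1.01 to 1.32 in female knockout libraries, against 1.11 to 1.39 in female control libraries. In males it was 1.19 to 1.33 in knockout libraries, against 1.25 to 1.37 in control libraries. mt-Co1 over mt-Nd1 was 1.92 to 2.08 in male knockout libraries, against 2.11 to 2.43 in male control libraries, without overlap, and 2.10 to 2.79 in female knockout libraries, against 1.99 to 2.60 in female control libraries. mt-Nd1 over mt-Rnr2 was 11.9 to 12.7 in male knockout libraries, against 9.40 to 11.1 in male control libraries, so that the male groups did not overlap. In females mt-Nd1 over mt-Rnr2 was 6.36 to 10.7 in knockout libraries, against 6.91 to 9.56 in control libraries, and these overlapped. In males mt-Co1 over mt-Rnr2 was 22.83 to 26.36 in knockout libraries, against 21.898 to 27.004 in control libraries. It overlapped there and in females. Apart from mt-Co1 over mt-Nd1 and mt-Nd1 over mt-Rnr2, all ratios computed overlapped in males. The share of all possible ratios that separate the male groups was not counted. The ratios were chosen after their values were seen and were not tested.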
